A study of Mus musculus with 8 samples.

Results

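The genes described here are ATF4, the transcription factor at the end of the integrated stress response, and 9 genes known for their link to it: Atf5, Atf3, Ddit3, Trib3, Asns, Slc7a11, Chac1, Sesn2 and Ddit4. The set was listed by gene name with earlier results of these data known, no measured value entered its rule, and its probes were found through the accession printed beside each of them. The 10 genes, of 18749 with a matched probe, were represented by 13 probes, and all 10 had a probe bright enough to be tested. Total RNA came from the No. 4 mammary glands of C57/Bl6 female mice at lactation day 1, from 4 wild-type (WT) dams and 4 Th-POK-deficient (KO) dams, and was measured on 8 one-color arrays with 1 dam on each. The dams were age matched and their age is not given in the sources used here. Th-POK, the product of Zbtb7b, is a DNA-binding zinc finger protein that directs T cell precursors to the helper lineage. Its knockout was not restricted to the gland, so the immune cells of the KO dams lacked it too. The study asked how its loss changed gene expression in the gland when milk secretion begins. Because RNA came from whole glands, fewer cells of a type and less RNA per cell cannot be told apart.

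In the integrated stress response, kinases that sense amino acid shortage, misfolded proteins in the endoplasmic reticulum, viral RNA or lack of heme phosphorylate the initiation factor eIF2. General translation then falls while the ATF4 mRNA is translated better, so the level of the Atf4 transcript is not a measure of ATF4 protein. ATF4 pairs with C/EBP proteins and raises genes for amino acid synthesis and uptake, tRNA charging and redox balance, together with CHOP (Ddit3), ATF3 and the feedback inhibitor TRIB3. Sesn2 and Ddit4, which restrain the growth kinase complex mTORC1, are also induced, which links the pathway to the control of protein and lipid synthesis in a secreting gland.

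ATF4 and its C/EBP partners bind a composite site, the C/EBP-ATF response element (CARE). The letters TGATGNAA were searched on both strands in the RefSeq promoter windows of GRCm38.p6, each reaching from 250 bases before to 50 bases after a gene's start. They were found in 1304 of 32851 windows (3.97%), and in windows of 5 of the 10 genes: Atf3, Chac1, Trib3, Slc7a11 and Asns. These matches are shown because they divide the 10 genes into those with and without the letters close to the start, a property that the array values did not enter. Each stretch runs 5′ to 3′ on the gene's own strand with the matched letters in capitals.
Atf3, chr1:191183425-191183454, minus strand, match 110 bases before the start: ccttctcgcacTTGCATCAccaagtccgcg
Chac1, chr2:119351038-119351067, plus strand, match 193 bases before the start: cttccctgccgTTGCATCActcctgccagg
Trib3, chr2:152344028-152344057, minus strand, match 15 bases after the start: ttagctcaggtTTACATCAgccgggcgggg
Slc7a11, chr3:50443661-50443690, minus strand, match 66 bases before the start: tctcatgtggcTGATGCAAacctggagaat
Slc7a11, chr3:50443642-50443671, minus strand, match 47 bases before the start: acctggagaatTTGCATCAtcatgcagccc
Asns, chr6:7693214-7693243, minus strand, match 23 bases before the start: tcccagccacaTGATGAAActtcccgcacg
The windows of Atf4, Atf5, Ddit3, Sesn2 and Ddit4 did not hold these letters, which says nothing about sites elsewhere in those genes. A match is a description of the sequence and not evidence of binding.

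Zbtb7b was measured first as a check on the labels. Its probe read between 9.90 and 10.42 on the log2 scale on the WT arrays and was not well above background on any KO array. Its signal was thus at least 81.5-fold lower in KO glands. The probe entered the test through the WT arrays alone, so no p is given for it. The share of probes read well above background ran from 66.8% to 75.3% per array, and no spot was saturated. The 4 WT dams were hybridized on 1 slide and the 4 KO dams on a second one, so genotype and slide cannot be told apart in any value below. Milk protein genes, the defining transcripts of the lactating gland, were bright in both genotypes, and none of the 8 tested was called. Their summed log2 signal was 20.5 to 20.6 on the WT and 20.5 to 20.6 on the KO arrays. Quantile normalization draws the brightest values together across arrays, so the like sums are no separate check. Lalba was lower in KO (-0.45) and was called in limma with same-numbered arrays as a block (adjusted p = 0.0444).

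No member passed the test between genotypes in the fit without pairing. Asns alone passed it once arrays of the same replicate number were paired as a block in limma (-0.62, adjusted p = 0.0445). The numbers come from the sample titles, and no source used here says what a shared number marks. With limma, no block and Benjamini-Hochberg adjustment over all genes tested, 0 of 10 had an adjusted p under 0.05 in either direction. In that fit 16.5% of the 14135 genes tested were called, 7.53% higher and 8.94% lower in KO glands. At an unadjusted p under 0.05 the count was 1 of 10, Chac1, against 36.3% of all genes. The methods' t-test, at an adjusted p under 0.05, called 0 of 10 members and 9.83% of all genes. In none of the 10 did the 4 arrays of one genotype lie wholly above those of the other, a separation that 24% of all genes showed. The mean was higher in KO for 4 members (Atf3, Trib3, Ddit3 and Sesn2) and lower for 6 (Chac1, Asns, Ddit4, Atf5, Atf4 and Slc7a11). The median difference of the 10 was -0.20 on the log2 scale, KO minus WT, beside -0.02 for all genes tested. A p that misses the threshold does not show that the genotypes were alike, so each gene is given below with every array and the 95% interval of its difference.

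**Figure D1:**
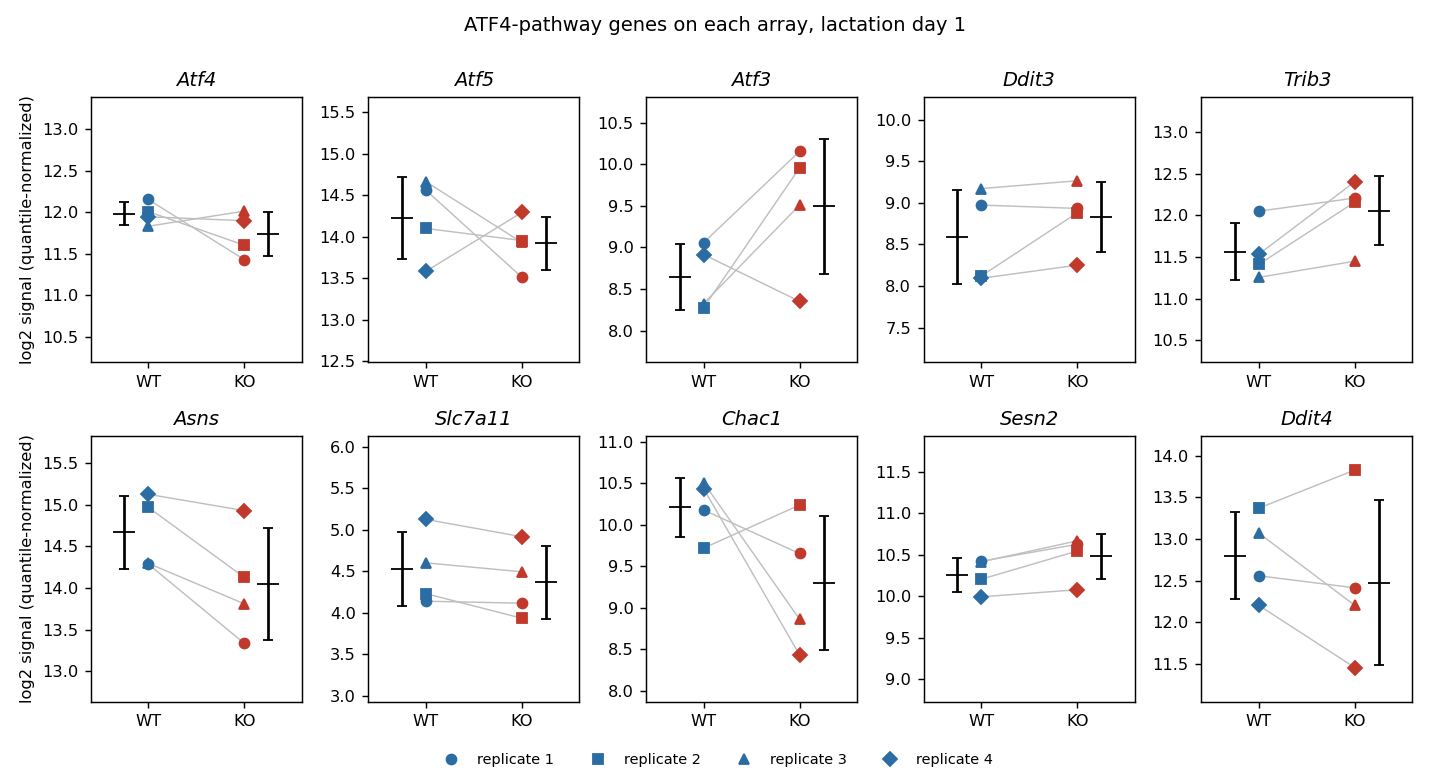
Quantile-normalized log2 signal (vertical axes, each spanning the same height) of the 10 genes on the 4 WT arrays (blue) and the 4 KO arrays (red), with symbols for the replicate number, gray lines joining arrays of the same number and black bars for the mean ± SD of each genotype. The genotypes overlap in every panel, and along all 4 lines the KO value is the lower for Asns and Slc7a11 and the higher for Trib3 and Sesn2. The share of all genes whose 4 lines run in the same direction was not computed. It includes at least the 24% whose genotypes do not overlap.

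Among the transcription factors, Atf4 itself varied least. Its log2 signals on WT arrays 1 to 4 were 12.15, 12.01, 11.83 and 11.95, and on KO arrays 1 to 4 they were 11.43, 11.61, 12.02 and 11.90. KO arrays 1 and 2 were below all WT arrays, while KO arrays 3 and 4 lay among them. The difference, KO minus WT, was -0.25 ± 0.15 (SE, n = 4 against 4, 95% interval -0.59 to 0.09), with an adjusted p of 0.260 by limma. The upper bound corresponds to 1.06 times the WT level.

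Atf5, a bZIP factor close to ATF4 whose translation is also favored under eIF2 phosphorylation, had signals of 14.56, 14.10, 14.66 and 13.58 in WT and 13.51, 13.95, 13.93 and 14.29 in KO. The lowest KO array and the lowest WT array read nearly alike, and 2 WT arrays were the highest of the 8. Its difference of -0.30 ± 0.26 (SE) had an interval of -0.89 to 0.29 and an adjusted p of 0.426.

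Atf3, a stress-induced bZIP factor that ATF4 activates, was the member with the largest higher mean in KO. WT signals were 9.06, 8.28, 8.32 and 8.91, and KO signals were 10.16, 9.96, 9.51 and 8.35. KO arrays 1, 2 and 3 lay above every WT array, whereas KO array 4 lay within the WT range. The mean in KO was 1.80-fold that in WT, a log2 difference of 0.85 ± 0.39 (SE, 95% interval -0.03 to 1.73), with an adjusted p of 0.149. Without KO array 4 the difference was 1.23 ± 0.25 (SE) with an adjusted p of 0.0245, in a fit that called 16.2% of all genes, and over its 17 alternatives the adjusted p of Atf3 ran from 0.0241 to 0.310. Whether Atf3 is counted as changed thus turns on 1 array.

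Ddit3 encodes CHOP, a C/EBP family protein that drives the later, death-linked output of the response. It read 8.97, 8.12, 9.17 and 8.09 in WT and 8.93, 8.88, 9.27 and 8.25 in KO. In each genotype array 3 was the highest and array 4 the lowest, and the spread within a genotype exceeded the gap between the means. The difference was 0.24 ± 0.31 (SE, interval -0.46 to 0.94, adjusted p = 0.598).

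Trib3 encodes a pseudokinase that ATF4 and CHOP induce and that holds both in check. Its brighter probe gave 12.05, 11.41, 11.26 and 11.54 in WT and 12.21, 12.16, 11.45 and 12.41 in KO. KO arrays 1, 2 and 4 were above all WT arrays and KO array 3 was not. The difference was 0.49 ± 0.24 (SE, interval -0.06 to 1.04), or 1.41-fold, with an adjusted p of 0.174. The dimmer probe A_52_P600274 ordered the arrays in a like way, with 8.50, 8.12, 7.98 and 8.35 in WT and 8.78, 8.49, 7.94 and 8.96 in KO, a difference of 0.31. On the brighter probe all 4 same-numbered pairs had the higher Trib3 signal in KO, by 0.16, 0.75, 0.20 and 0.87 in pairs 1 to 4. On the dimmer probe pairs 1, 2 and 4 did so, while pair 3 was slightly lower in KO (7.98 in WT and 7.94 in KO).

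The targets that handle amino acids and glutathione all had the lower mean in KO. Asns, asparagine synthetase, makes asparagine from aspartate and glutamine and is a standard readout of ATF4. Its signals were 14.29, 14.97, 14.30 and 15.13 in WT and 13.33, 14.13, 13.81 and 14.93 in KO. KO arrays 1, 2 and 3 were below every WT array, while KO array 4 was above 2 of them. The mean was 1.54-fold higher in WT, a log2 difference of -0.62 ± 0.35 (SE, interval -1.41 to 0.17), with an adjusted p of 0.228.

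Taken as pairs of the same replicate number, Asns was lower in the KO array in 4 of 4, with differences of -0.95, -0.84, -0.49 and -0.20. With the replicate block, limma gave the same difference of -0.62 with an SE of 0.15 and an adjusted p of 0.0445, so that Asns fell in that fit, as the only member called, beside 19.6% of all genes. With the block and without pair 4, a setting added after seeing the data, 2 of 10 members were called beside 11.3% of all genes, Asns (-0.76, adjusted p = 0.0431) and Atf3 (1.32, adjusted p = 0.0241). Over the 17 alternatives the difference of Asns kept its sign, between -0.91 and -0.38, and its adjusted p ran from 0.0431 to 0.458.

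Slc7a11, the cystine and glutamate exchanger that feeds glutathione synthesis, was the member nearest to background. Its main probe was well above background on 3 WT and 4 KO arrays and read 4.14, 4.23, 4.60 and 5.12 in WT and 4.11, 3.93, 4.49 and 4.92 in KO. All 4 pairs had the lower value in KO, by at most 0.30, against a range of nearly 1 log2 unit between dams of a genotype. The difference was -0.16 ± 0.27 (SE, interval -0.78 to 0.46, adjusted p = 0.705), and it was 0.04 without WT array 4 and 0.06 after another background correction. Probe A_52_P663446 was well above background on 3 WT arrays and no KO array (means of 3.96 in WT and 3.34 in KO). Probe A_52_P368057 was well above background on 1 WT array alone. No fold is given for either probe, because the WT mean of each includes readings not well above background.

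Chac1 breaks down glutathione and is among the most strongly induced genes when ATF4 and CHOP act. Signals were 10.18, 9.72, 10.51 and 10.44 in WT and 9.65, 10.24, 8.86 and 8.43 in KO. KO arrays 3 and 4 lay clearly below the lowest WT array, array 1 just below it, and array 2 within the WT range. The mean was 1.88-fold higher in WT, a log2 difference of -0.91 ± 0.38 (SE, interval -1.77 to -0.05). This was the largest difference among the 10, with an unadjusted p of 0.0401 and an adjusted p of 0.120. Atf3 and Chac1, both with a CARE match before the start, thus had means that differed in opposite directions.

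The means of the 2 brakes of mTORC1 also differed in opposite directions. Sesn2 encodes sestrin 2, which senses leucine and acts through GATOR2, and it read 10.42, 10.21, 10.41 and 9.99 in WT and 10.62, 10.54, 10.67 and 10.08 in KO. KO arrays 1, 2 and 3 were the highest of the 8, and the KO array was the higher of each pair. The difference of 0.22 ± 0.16 (SE, interval -0.15 to 0.59) had an adjusted p of 0.360.

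Ddit4 encodes REDD1, which acts on mTORC1 through the TSC complex and also answers to hypoxia and glucocorticoids. It read 12.56, 13.37, 13.07 and 12.20 in WT and 12.41, 13.83, 12.20 and 11.45 in KO. The KO arrays held both the highest and the lowest of the 8 values. The difference of -0.33 ± 0.48 (SE, interval -1.41 to 0.76, adjusted p = 0.653) became 0.01 without KO array 4. The interval spans a level 0.375 times to 1.70 times that of WT.

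**Figure D2:**
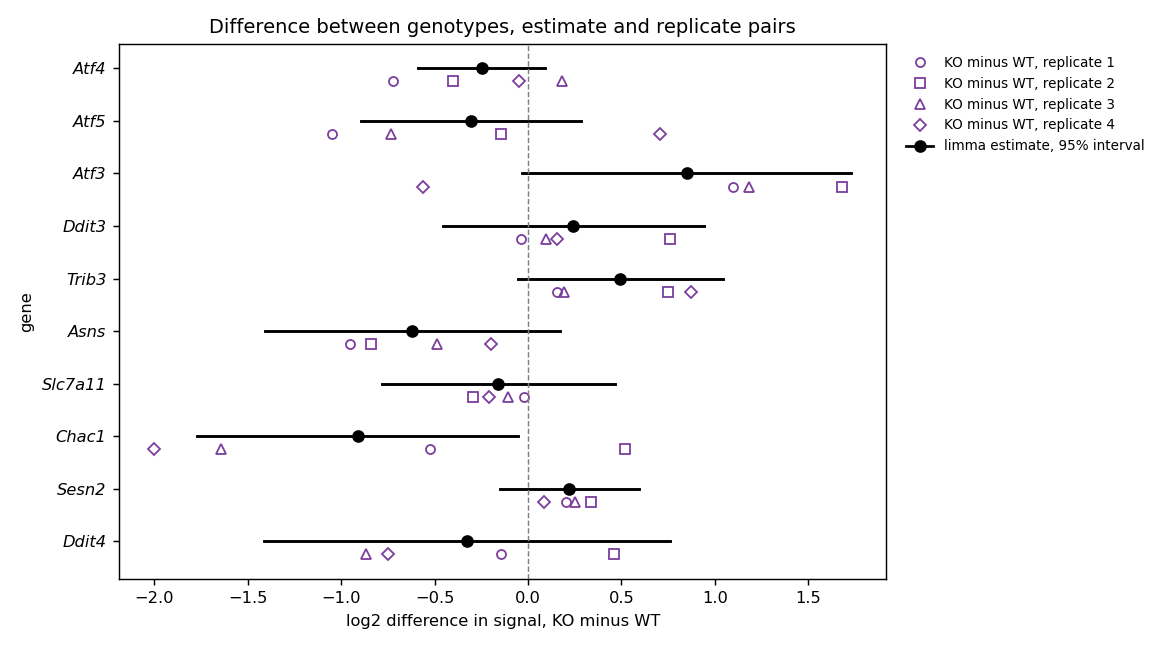
Difference in log2 signal, KO minus WT (horizontal axis), of the 10 genes: black points and lines are the limma estimate and its 95% interval, and open symbols are the differences within the 4 same-numbered pairs. All intervals but that of Chac1 (-1.77 to -0.05) cross 0, and the 4 pairs of Asns lie between -0.95 and -0.20.

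The spread between dams of a genotype was wide for these genes. The within-genotype SD was above the median of all genes tested, 0.23 log2 units, for 9 of 10 members, and above the 75th percentile, 0.35, for 8 of 10. It ran from 0.21 for Atf4 to 0.79 for Ddit4. KO array 4 was the highest or the lowest of the KO arrays for 9 of 10 members, highest for 4 and lowest for 5, a place it held for 61.7% of all genes. The other 7 arrays were at an extreme of their genotype for 3 to 6 members. On KO array 4, Atf3, Ddit3, Chac1, Sesn2 and Ddit4 were the lowest and Atf5, Trib3, Asns and Slc7a11 the highest of the KO dams. Quantile normalization gives every array the same distribution, so these values cannot tell whether the array was low or high as a whole.

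**Figure D3:**
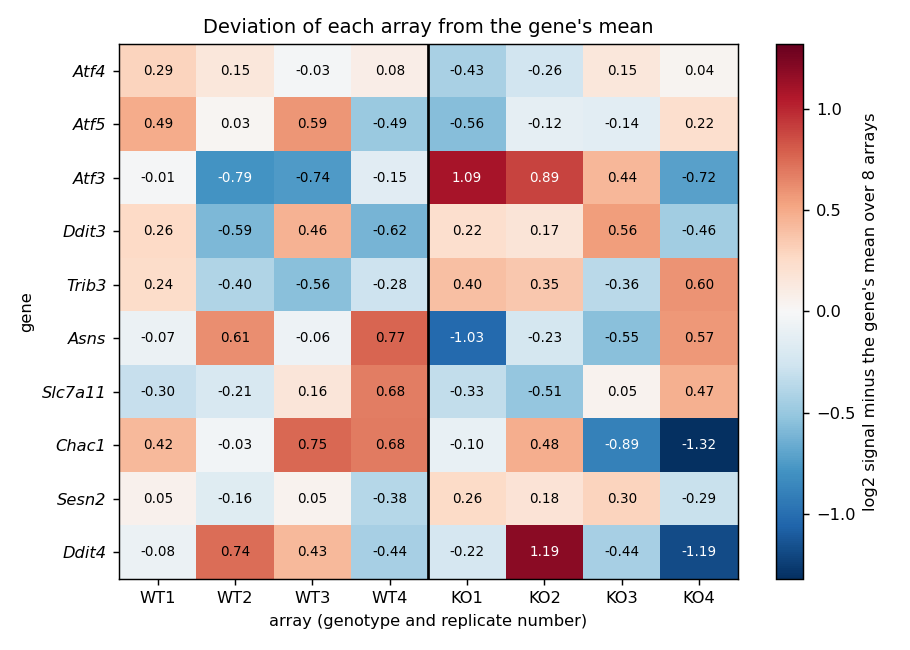
Log2 signal of each gene (rows) on each array (columns, WT1 to WT4 and KO1 to KO4) minus the gene's mean over the 8 arrays, red above and blue below. The rows do not share a pattern: KO array 4 is the lowest KO array for 5 genes and the highest for 4, and Ddit4 is at its highest and its lowest on KO arrays.

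The rest of the pathway was described through 8 lists of other genes, 117 in all, of which 110 were tested. In KO glands 31 of them (28.2%) fell and 4 (3.64%) rose, beside 8.94% and 7.53% of all genes, and their median difference was -0.35 beside -0.02. The count that fell was 12 without WT array 2, 14 without WT array 3, 12 without KO array 1, 14 without KO array 2 and 10 without KO array 3, in fits that also called fewer genes overall. The count that rose was 2 without WT array 2 or KO array 1 and 1 without KO array 3. The lists were written with earlier results of these data known and no list was tested as a set.

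**Figure D4:**
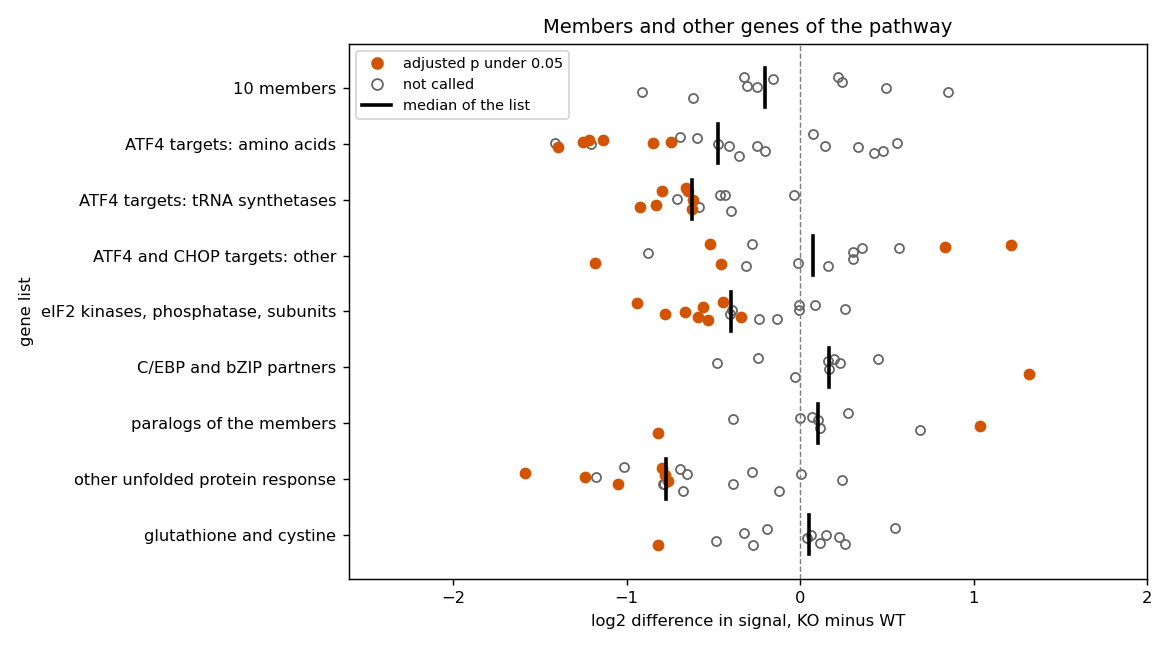
Difference in log2 signal, KO minus WT (horizontal axis), of each gene tested in the 10 members and the 8 pathway lists (rows), with called genes filled, other genes open and the list's median as a black bar. The medians of the tRNA synthetases (-0.63) and of the other unfolded protein response genes (-0.77) lie to the left of that of the members (-0.20), in which no gene is filled.

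Upstream of ATF4, the eIF2 list holds the kinases, the phosphatase subunits and the eIF2 and eIF2B subunits, together with Dnajc3, Impact and Gcn1. Of 16 tested, 8 fell (50%) and none rose, with a median of -0.40. The 4 with the smallest p were Dnajc3, a chaperone that inhibits eIF2 kinases (-0.94 ± 0.15 (SE), adjusted p = 0.0117), Eif2b4 (-0.78 ± 0.14) and Eif2b1 (-0.66 ± 0.12), both subunits of the exchange factor that reloads eIF2, and Eif2ak3. Eif2ak3 encodes PERK, the kinase activated by endoplasmic reticulum stress, and fell by 0.53 (SE 0.11, adjusted p = 0.0196). With the 2-fold minimum the count was 0, and it was 4 without WT array 2, 3 or 4 and 3 without KO array 1, 2 or 3. Eif2ak3 was not called without any one of the 3 last named arrays, while Dnajc3, Eif2b4 and Eif2b1 were called in 17 of 17 alternatives.

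Of the C/EBP and bZIP partners of ATF4 and CHOP, 1 of 9 rose and none fell, with a median of 0.17. Cebpd, a C/EBP factor known for its rise in mammary involution, went from 13.66 ± 0.31 (SD, n = 4) in WT to 14.97 ± 0.38 in KO, a difference of 1.32 ± 0.22 (SE, adjusted p = 0.0122), and was called in 17 of 17 alternatives. The next were Nfe2l1 (0.45, adjusted p = 0.113, and 0.0372 with the replicate block), Jdp2 (-0.48, adjusted p = 0.188) and Cebpa (0.23, adjusted p = 0.280).

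Among 9 tested paralogs of the members, 1 rose and 1 fell. Sesn3, a sestrin induced by FOXO factors, rose by 1.04 ± 0.24 (SE, adjusted p = 0.0279), where Sesn2 differed by 0.22. Chac2, a slower relative of Chac1, fell by 0.82 (SE 0.21, adjusted p = 0.0341). Sesn1 differed by 0.27 (adjusted p = 0.147) and Atf6 by -0.39 (adjusted p = 0.0820). The call of Sesn3 was lost without WT array 2, KO array 1 or KO array 3, and that of Chac2 without WT arrays 2, 3 or 4 or KO arrays 1, 2 or 3. Both calls were also lost with the methods' t-test, and that of Chac2 with no filter on dim probes. With the replicate block 2 paralogs rose, Ddit4l in addition, which was named after its value was seen.

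ATF4 targets of amino acid synthesis and transport are the group to which Asns belongs. Of 21 tested, 6 fell (28.6%) and none rose, and the median was -0.48. Mthfd2, a mitochondrial enzyme of one-carbon metabolism, went from 7.78 ± 0.31 (SD, n = 4) to 6.38 ± 0.26, a difference of -1.40 ± 0.19 (SE, adjusted p = 0.00699). Slc7a1, a carrier of arginine and lysine, differed by -1.25 ± 0.22 (adjusted p = 0.0149). Both were called in 17 of 17 alternatives.

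Got1, which interconverts aspartate and glutamate, differed by -1.14 (adjusted p = 0.0245) and Aldh18a1, which opens proline synthesis, by -1.22 (adjusted p = 0.0343). The list's count was 2 without WT array 2 or KO array 3 and 3 without WT array 3 or KO array 1. It was also 1 higher gene without WT array 4 or without KO array 4. Got1 was lost without WT array 2 or KO array 3, and Aldh18a1 without WT arrays 2, 3 or 4 or KO arrays 1, 2 or 3. The methods' t-test called neither and left 2 of the 21 genes, and with no filter on dim probes 3 were called, Aldh18a1 not among them.

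All 13 genes of the tRNA charging list, 12 synthetases and the tRNA exporter Xpot, had the lower mean in KO. Of these, 7 fell (53.8%) and the median was -0.63. Eprs differed by -0.92 ± 0.15 (SE, adjusted p = 0.0113), Tars by -0.65 ± 0.11 (adjusted p = 0.0117), Xpot by -0.63 ± 0.11 (adjusted p = 0.0139) and Aars by -0.83 ± 0.15 (adjusted p = 0.0145), and these 4 were called in 17 of 17 alternatives. The count was 4 without KO array 2 or KO array 3, and 0 with the 2-fold minimum. CARE letters were found in windows of 5 of the 9 genes that had one (Tars, Aars, Yars, Gars and Iars).

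Of 14 tested ATF4 and CHOP targets that signal, are secreted or act in cell death, 2 rose and 3 fell, with a median of 0.07. Gadd45a, a growth arrest gene, rose by 1.21 ± 0.24 (SE, adjusted p = 0.0183) and Bcl2l11, which encodes the death protein BIM, by 0.84 ± 0.20 (adjusted p = 0.0290). Stc2, a secreted glycoprotein, fell by 1.18 (SE 0.27, adjusted p = 0.0266) and Ero1a, an oxidase of the endoplasmic reticulum that CHOP induces, fell by 0.46 (SE 0.12, adjusted p = 0.0393). Without KO array 3 none of these rose, and 1 rose without WT array 2, WT array 3, KO array 1 or KO array 2. None fell without WT array 2, WT array 4, KO array 1 or KO array 3, and 1 fell without WT array 3 or KO array 2. With the methods' t-test 1 rose and 0 fell, and with no filter on dim probes 1 fell, Stc2.

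The arms of the unfolded protein response outside ATF4, run by ATF6 and by IRE1 with XBP1, raise chaperones and degradation factors. Of 18 tested, 6 fell (33.3%), none rose, and the median was -0.77. Sdf2l1 (-1.59 ± 0.35 (SE), adjusted p = 0.0233), Hyou1 (-1.24 ± 0.27, adjusted p = 0.0224) and Dnajb11 (-0.80 ± 0.18, adjusted p = 0.0259) are chaperones or their partners in the endoplasmic reticulum, and Edem1 (-0.76 ± 0.15, adjusted p = 0.0172) sends misfolded glycoproteins to degradation. With the replicate block 12 of 18 fell. The count was 1 without WT array 2, WT array 3, KO array 1 or KO array 3, 2 without KO array 2 and 14 without WT array 4, and the methods' t-test called 1. Edem1 alone of the 4 was called in 17 of 17 alternatives, but its difference of -0.76 was short of the 2-fold minimum. With that minimum the count was 3.

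Genes of glutathione and cystine handling, the group of Slc7a11 and Chac1, had 1 of 12 called, Chac2, and a median of 0.05. Gss, glutathione synthetase, differed by -0.49 (adjusted p = 0.0529, and 0.0491 with the replicate block), Ggt5 by 0.54 (adjusted p = 0.0548) and Ggct by -0.32 (adjusted p = 0.177).

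Across all genes, the CARE letters near the start were set beside the calls, with no test of the difference in shares. Of 332 genes tested with a match, 35 rose (10.5%) and 31 fell (9.34%), with a median of -0.02, and of 10895 with a window and no match 784 rose (7.20%) and 1011 fell (9.28%). The 5 members with a match had means higher in KO for Atf3 and Trib3 and lower for Chac1, Asns and Slc7a11, and none was called.

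Markers of other cell types differed between the genotypes too. Neutrophil genes rose in 3 of 7 tested. Their summed log2 signal was 16.0 to 16.6 on WT and 17.4 to 18.0 on KO arrays. This sum was close to the signal of Ltf alone (16.0 to 16.6 and 17.3 to 17.9). The 3 were Camp and Ngp, granule protein genes of neutrophils, and Ltf. Camp and Ngp, named after their values were seen, were well above background on no WT array and on all 4 KO arrays. Their signals were at least 8.54-fold and at least 7.11-fold higher in KO. Both entered the test through the KO arrays alone, so no p is given for them. Their calls, counted in the 3 of 7, are not separate support. Ltf, which mammary epithelium also makes, was the brightest gene of the list (16.27 in WT and 17.58 in KO, adjusted p = 0.00660). S100a9 followed (10.61 and 12.81, adjusted p = 0.0566), while Elane was not well above background on any array. S100a8 (0.49, KO minus WT), Retnlg (1.09) and Mpo (0.24), the rest of those tested, were not called either. Luminal epithelial genes rose in 5 of 10 (17.9 to 18.2 on WT and 18.3 to 18.4 on KO arrays), adipocyte genes in 2 of 9 (18.2 to 18.7 and 18.7 to 19.2) and fibroblast genes in 1 of 6 (17.4 to 17.7 and 17.7 to 18.3). Basal epithelium and T cells had 1 gene each that fell, of 9 and 6, and B cells 1 of 5 that rose, with Pax5 not above background on any array. None of 8 macrophage and 6 endothelial genes was called. Of the luminal genes, Elf5 alone had the lower mean in KO (-0.35, not called). The marker counts stand beside 7.53% of all genes called higher and 8.94% called lower. Each summed signal follows the brightest genes of its list. Several members are expressed in many of these cell types, and the part of cell makeup in the values above was not tested.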

How the data were processed

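Per the labels, each of the 8 samples was total RNA of 1 dam, labeled with Cy3 and hybridized to an Agilent 4x44K mouse array (design 014868). For every array the authors deposited Agilent Feature Extraction 10.7 output, whose processed intensity is background-subtracted and detrended within the array, and a table of log2 values quantile-normalized in GeneSpring, with column medians of 6.33, used as an alternative only.

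Outlier spots (64 to 100 per array) and control spots were left out, and the processed intensities were log2-transformed and then quantile-normalized across arrays. Probes were named by accession through a RefSeq gene table (27479 of 41174 matched), kept where well above background on all 4 arrays of a genotype, and each gene was read from its brightest probe. Genotypes were compared with lmFit and eBayes of limma 3.58.1 in R 4.3.3, with Benjamini-Hochberg adjustment over 14135 genes. A gene is called, or said to rise or fall, at an adjusted p under 0.05. The number of arrays limits the precision. The fit was tested on simulated data.

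Deviations of same-numbered WT and KO arrays from their group means correlated at 0.22, 0.16, 0.30 and 0.28 for numbers 1 to 4, and different numbers at -0.08 on average. The numbers come from the sample titles, which do not say that dams were matched. A fit with the number as a replicate block was an alternative. Others were 75th percentile scaling, normexp (offset 50) on the median spot signal in place of the planned mean signal, no filter on dim probes, the mean of a gene's probes, unmatched probes kept, the methods' t-test, a 2-fold minimum and leaving out each array. The block without pair 4 was added after seeing the data. The 2-fold minimum was applied to counts only and is not among the 17 alternatives given for single genes. The array design cites mouse build mm9, so probes have no coordinates here, and promoter windows carry those of GRCm38.p6. Members, lists and tests were chosen with earlier results of these data known. The text names all members, Zbtb7b and the 4 genes of each pathway list with the smallest p. The brightest markers are named as such for the neutrophil list alone, though this was planned for every marker list. Some other genes, such as Lalba and Elf5, were named after their values were seen.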

Additional observations from a re-analysis of the deposited data

How the results depend on the processing

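Of 170 comparisons of a member with an alternative, 163 kept their direction and their side of the threshold, 4 passed it and 3 reversed. The block of replicate numbers raised the members called as lower from 0 to 1 (Asns) and changed no other member's call. The replicate block without pair 4, chosen after seeing the data, called 1 member higher (Atf3, 1.32) and 1 lower (Asns, -0.76), in a fit that called 11.3% of all genes. Leaving out an array gave 0 to 1 members higher, the 1 being Atf3 without KO array 4. Slc7a11 reversed with normexp on the median spot signal (0.0608) and ran from -0.34 to 0.0412 when an array was left out, and Ddit4 from -0.78 to 0.0146 (without KO array 4). None of these reversed values was called, and the cause was not tested. Over all genes the methods' t-test called 593 higher and 796 lower, 302 and 316 passed the 2-fold minimum as well, and keeping unmatched probes, which adds features, gave 1651 higher. Leaving out an array gave 267 to 1387 higher and 249 to 1688 lower. The total of 2329 became 762 without WT array 2, 984 without WT array 3, 751 without KO array 1, 953 without KO array 2 and 516 without KO array 3. Of the pathway genes the methods' t-test called 2 higher and 14 lower and the 2-fold minimum kept 8 lower, and leaving out an array gave 1 to 5 higher and 10 to 33 lower. The median over all genes moved by less than 0.1 log2 units under each scaling. A fit with the slide as a block was not run because each genotype lay on a slide of its own. Slc7a11, read close to background, is the member that signal limits most.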

Other observations

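The endoplasmic reticulum stress element, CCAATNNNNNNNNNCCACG, through which ATF6 acts, was searched in the same promoter windows on both strands. It was found in 39 of 32851 windows (0.119%) and in none of the 10 members. In the list of unfolded protein response genes outside the ATF4 arm, 6 of 16 with a window held it. Of 20 genes tested with a match, 6 fell in KO glands (30%) and 0 rose, with a median difference of -0.67 on the log2 scale, and of 11207 with a window and no match 1036 fell (9.24%) and 819 rose (7.31%). The genes with a match include members of that list, so their counts are not independent of it.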
